A study of Mus musculus with 24 samples.

Results

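The proliferation and mitosis genes considered here were 42 genes that drive a cell through DNA replication and division, among them Mki67, Top2a, the cyclins and kinases of S phase and mitosis, the Mcm helicase subunits and the spindle motors. Their chromatin accessibility was measured by ATAC-seq in germinal centre B (GCB) cells of 4 genotypes. A peak was assigned to a gene when it overlapped the gene body on mm10 extended by 5000 bp on each side, and it was called a promoter peak when it lay within 1000 bp of the transcription start site (TSS) of a protein-coding transcript. The 42 genes were chosen with earlier results of these data known, while the assignment of peaks to them used no measured value. The assignment found 122 of the 65483 consensus peaks, of which 42 were promoter peaks, 1 for each gene, and 80 were other peaks.

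The study asked how heterozygous loss of 2 chromatin regulators that are often mutated together in B cell lymphoma alters GCB cells. Crebbp encodes a histone acetyltransferase and Kmt2d a histone H3 lysine 4 methyltransferase that acts at enhancers. The groups were Cg1Cre+/- (WT, 4 mice), Cg1Cre+/-, Crebbp fl/+ (C, 4 mice), Cg1Cre+/-, Kmt2d fl/+ (K, 4 mice) and Cg1Cre+/-, Crebbp fl/+, Kmt2d fl/+ (CK, 5 mice). WT here therefore means mice with intact Crebbp and Kmt2d that carry the same Cre as the mutants, expressed from the Cγ1 immunoglobulin locus once B cells are activated, so that each floxed allele is lost in those cells and not in the whole animal. Mice of 8 weeks were immunized with sheep red blood cells (SRBC), and splenic GCB cells were sorted on day 10, with 60000 cells and 1 library for each mouse.

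Germinal centres are among the fastest dividing tissues of the body, and their dark zone cells, the centroblasts, cycle between rounds of antibody gene mutation. Genes of the G1/S transition are opened to transcription by E2F factors, and genes of G2 and mitosis by the MuvB complex with MYBL2 and FOXM1. This complex acts through the cell cycle genes homology region (CHR) beside CCAAT boxes bound by NF-Y. These promoters lie in CpG-rich, nucleosome-depleted DNA that is open through the cycle, while transcript levels rise and fall. ATAC-seq of a sorted population reports accessibility and not transcription, and fewer cells with an open region cannot be told apart from a region less open in each cell.

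Each library held 17483706 to 21857738 fragments in peaks, a median of 85 fragments for each peak, and libraries of the same genotype correlated at 0.979 to 0.989 in log2 CPM over all peaks, where CPM are fragments scaled to an equal library size (counts per 1e6 fragments). The share of fragments at promoters of all protein-coding genes was 54.0 to 56.0% for WT, 54.0 to 55.6% for C, 55.4 to 58.1% for K and 56.1 to 57.7% for CK. The study describes its mice as female, yet 1087 to 1317 fragments lay at the promoters of 4 Y-linked genes in 9 of the 17 libraries (2 of 4 WT, 2 of 4 C, 3 of 4 K and 2 of 5 CK), against 0 or 1 fragment in each of the other 8. Comparisons among the libraries with and without this signal are therefore given beside the results. Markers of B cells (6 of 6 genes), GCB cells (7 of 7), centroblasts (4 of 4) and centrocytes (5 of 5) had promoter peaks. Of the T cell markers Cd3e, Cd3g, Cd4, Cd8a, Cd8b1 and Trac had no promoter peak and only Cd3d had one, at 21.03 to 32.6 CPM over the 17 libraries, and of the myeloid markers Itgam and Lyz2 had none while Csf1r and Adgre1 summed to 2.29 to 4.85 CPM. Plasma cell markers (4 of 4) had promoter peaks that summed to 159 to 181 CPM. No marker peak passed an adjusted p of 0.01 in C, K or CK against WT (edgeR), where 0.122%, 2.01% and 10.5% of all promoter peaks did.

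The sequence around the start of these genes often held the elements named above. RefSeq sequences on GRCm38.p6 from 250 bases before to 50 bases after the start were matched to 34 of the 42 genes, and 3 kinds of element were searched on both strands: the CCAAT box (CCAAT), the CHR (TTTGAA or TTCGAA) and an E2F site (TTTGGCGC, TTTCGCGC, TTTGCCGC or TTTCCCGC), which do not contain each other. A CCAAT box was found in 27 of the 34 (79.4%), a CHR in 17 (50.0%) and an E2F site in 7 (20.6%). Among the 32851 promoters searched the shares were 37.4%, 19.2% and 2.26%, and 37.3%, 12.8% and 4.27% among the 13310 in promoter peaks. The promoters searched did not cover every gene. Members without a matched sequence, among them Cdc25c and Kif20a, were left out of these counts. All 17 promoters with a CHR also held a CCAAT box, among them those of Aurka, Bub1, Ccnb2, Cdc20, Cdk1, Cenpf, Kif23, Mki67, Plk1, Top2a and Ttk. Birc5, Ccne1, E2f1, Mad2l1, Mybl2, Nusap1 and Tyms held none of the 3 in this window. For E2f1 the window (chr2:154569377-154569676, minus strand) lay inside the gene, which starts at 154569892 in GENCODE. The sequence before that start was not searched.

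The 6 promoters on which the results below turn are printed 5′ to 3′ in the direction of transcription, with the elements in capitals. Cdk1 (chr10:69352863-69353162, minus strand) carried 3 CCAAT boxes, 2 CHR matches and 1 E2F site, and Mki67 (chr7:135716330-135716629, minus strand) shows the CCAAT and CHR pairing of a mitotic gene. Mcm6 (chr1:128359656-128359955, minus strand) shows the replication type, with 3 E2F matches, of which 2 overlap in the first marked stretch. Ccne1 (chr7:38107441-38107740, minus strand) and Mybl2 (chr2:163054385-163054684, plus strand) are CG-rich promoters without a match that stood near the top of the range in CK, and Kif11 (chr19:37376132-37376431, plus strand) varied most between mice.
Cdk1: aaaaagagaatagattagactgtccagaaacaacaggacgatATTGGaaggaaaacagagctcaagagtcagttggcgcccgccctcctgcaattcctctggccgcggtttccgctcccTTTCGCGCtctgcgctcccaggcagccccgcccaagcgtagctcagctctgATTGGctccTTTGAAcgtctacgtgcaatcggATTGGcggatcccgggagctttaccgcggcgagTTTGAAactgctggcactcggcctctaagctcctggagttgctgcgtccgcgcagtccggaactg
Mki67: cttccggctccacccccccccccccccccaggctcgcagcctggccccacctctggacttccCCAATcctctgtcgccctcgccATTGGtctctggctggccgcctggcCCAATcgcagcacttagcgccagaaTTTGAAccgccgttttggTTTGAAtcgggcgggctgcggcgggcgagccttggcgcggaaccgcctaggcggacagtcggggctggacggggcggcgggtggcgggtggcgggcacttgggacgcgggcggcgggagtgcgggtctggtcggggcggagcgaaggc
Mcm6: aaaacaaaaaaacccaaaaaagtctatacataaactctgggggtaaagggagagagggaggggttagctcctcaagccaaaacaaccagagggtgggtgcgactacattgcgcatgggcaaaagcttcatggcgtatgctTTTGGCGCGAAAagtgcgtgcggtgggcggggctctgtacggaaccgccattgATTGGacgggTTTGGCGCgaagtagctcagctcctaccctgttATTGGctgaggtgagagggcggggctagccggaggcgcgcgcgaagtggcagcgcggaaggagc
Ccne1: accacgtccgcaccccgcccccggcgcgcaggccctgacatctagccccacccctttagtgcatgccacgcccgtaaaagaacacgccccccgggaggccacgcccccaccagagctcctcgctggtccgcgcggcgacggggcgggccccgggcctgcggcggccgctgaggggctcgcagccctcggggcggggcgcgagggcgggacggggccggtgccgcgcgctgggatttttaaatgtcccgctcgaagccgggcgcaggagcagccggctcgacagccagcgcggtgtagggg
Mybl2: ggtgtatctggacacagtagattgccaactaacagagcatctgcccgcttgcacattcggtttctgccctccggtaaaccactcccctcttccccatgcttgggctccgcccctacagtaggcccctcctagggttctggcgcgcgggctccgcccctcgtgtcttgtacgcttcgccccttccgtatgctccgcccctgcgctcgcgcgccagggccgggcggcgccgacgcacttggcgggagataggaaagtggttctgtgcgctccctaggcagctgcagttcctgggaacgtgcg
Kif11: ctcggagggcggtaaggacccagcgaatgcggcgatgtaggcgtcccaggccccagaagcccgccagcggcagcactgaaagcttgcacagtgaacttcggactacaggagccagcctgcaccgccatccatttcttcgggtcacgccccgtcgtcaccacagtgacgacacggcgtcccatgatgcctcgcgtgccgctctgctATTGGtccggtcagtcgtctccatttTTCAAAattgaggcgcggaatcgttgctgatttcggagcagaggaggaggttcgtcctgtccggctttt

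The promoters of the proliferation and mitosis genes were open in every mouse and more accessible than most promoters. In WT their median was 57.4 CPM (range 19.6 to 108) against 33.1 CPM for all 13947 promoter peaks, and per kilobase of peak 33.1 CPM (6.31 to 75.6) against 20.6, with 37 of 42 above the median of all promoters. They were somewhat longer (median 1634 bp, range 734 to 4119, against 1460 bp) and slightly poorer in G and C (median 54.6%, range 47.0 to 68.2, against 56.6%). The coefficient of variation over the 4 WT mice had a median of 4.49%, against 6.09% for all promoters, whose counts were lower. The centre of 40 of the 42 peaks lay within 500 bp of the TSS. A set of 7 peaks also covered the start of a neighbouring gene and cannot be assigned to either gene alone: Cdk2 with Pmel, Aurka with Cstf1, Kif20a with Brd8, Nusap1 with Oip5, Foxm1 with Rhno1, Mcm4 with Prkdc and Mcm7 with Ap4m1.

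Ordered by level per kilobase in WT, Pcna, the sliding clamp of DNA polymerase, stood first at 75.6 ± 2.68 CPM per kb (SD, n = 4), at the 98.6th percentile of all promoters. It was followed by Mad2l1 (66.3 CPM per kb), a spindle checkpoint protein, Mcm4 (61.0), Mcm7 (60.8) and Ccna2 (60.8), and then by E2f1 (54.1), Nusap1 (54.0) and Mcm2 (50.2). The lower end of the order held Cdk1 (19.4 CPM per kb), Plk1 (18.3), Foxm1 (16.6), the kinetochore motor Cenpe (13.3) and last thymidylate synthase, Tyms (6.31 CPM per kb, 23.3rd percentile). The order was not sharp, since 34 of the 41 pairs of neighbours overlapped in range between mice, and Pcna was above every other gene in every WT mouse. The plot of levels shows that the highest and lowest promoters came from several roles, with helicase subunits, cyclins and checkpoint genes intermixed.

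**Figure D1:**
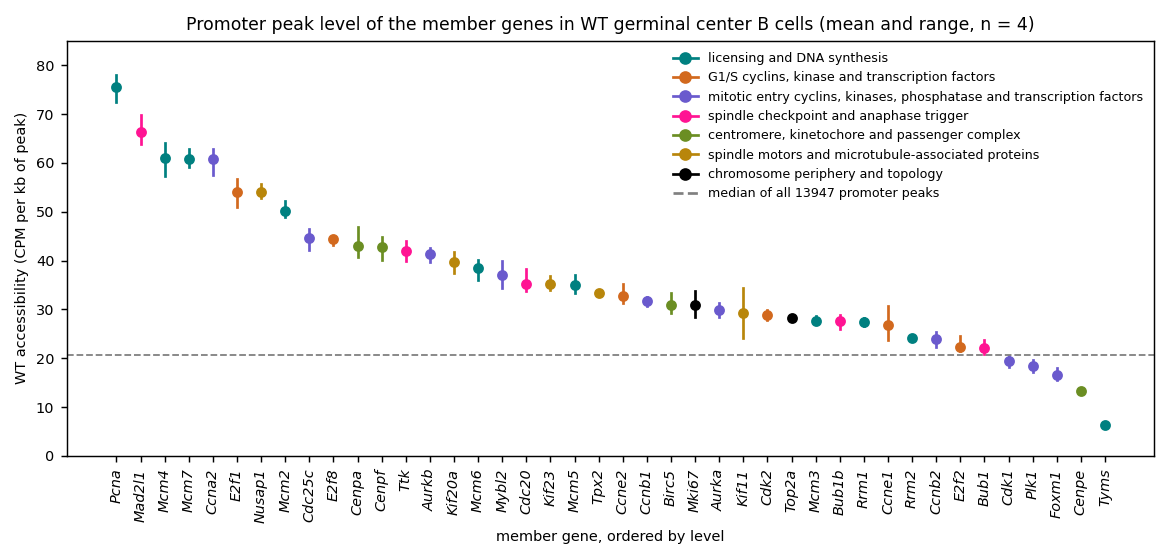
Promoter accessibility of the 42 genes in WT (CPM per kb of peak, vertical axis), ordered by level, with points for the mean and bars for the range of the 4 WT mice, coloured by role, and a dashed line at the median of all promoters. Levels run from 75.6 CPM per kb for Pcna to 6.31 for Tyms, and 37 of the 42 points lie above the line at 20.6.

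None of the 42 promoters passed an adjusted p of 0.01 in any mutant (edgeR quasi-likelihood F test, Benjamini-Hochberg over all 65483 peaks). Over all promoters 0.122% passed when C was the mutant, 2.01% when it was K and 10.5% when it was CK, the last made of 9.47% with higher and 1.05% with lower accessibility. Unadjusted p-values under 0.05 were found for 4 (C), 4 (K) and 5 (CK) members, against shares of 8.59%, 26.6% and 35.4% over all promoters. At an adjusted p under 0.05 there were 2 members in CK, Ccne2 and Mybl2, against 21.2% of all promoters. DESeq2 also called 0 of the 42 in each mutant, where it called 0.229%, 3.81% and 12% of all promoters. A fit of all 17 libraries with the number of the mouse as a block called 0 members and 0.215% of all promoters in C. The numbers paired only WT with C, and this fit also held the K and CK libraries. In a fit of the 9 libraries with Y signal 0 of the 42 promoters were called in any mutant, where 0.0287% (C), 0.222% (K) and 0.968% (CK) of all promoters were. In a fit of the 8 without it, in which K was 1 library assumed to vary like the others, 0 were called beside 0.0430%, 0.0215% and 2.75% of all promoters.

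C had a median log2 fold change over the 42 promoters of -0.03, K of 0.02 and CK of 0.01, against -0.01, 0.06 and 0.06 over all promoters. Members above 0 numbered 10 for C, 31 for K and 23 for CK, and those above the median of all promoters 15, 10 and 10. The 42 fold changes were narrowly spread, between -0.13 and 0.21 for C, between -0.33 and 0.21 for K and between -0.06 and 0.22 for CK. Their median standard error was 0.05 in each, against 0.07 (C), 0.07 (K) and 0.06 (CK) over all promoters, whose counts were lower. The 95% confidence interval lay within 1.25-fold in either direction for 41 members of C and for 40 of both K and CK, against 73.7%, 64.3% and 63.4% of all promoters, and within 1.5-fold for all 42 in each.

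**Figure D2:**
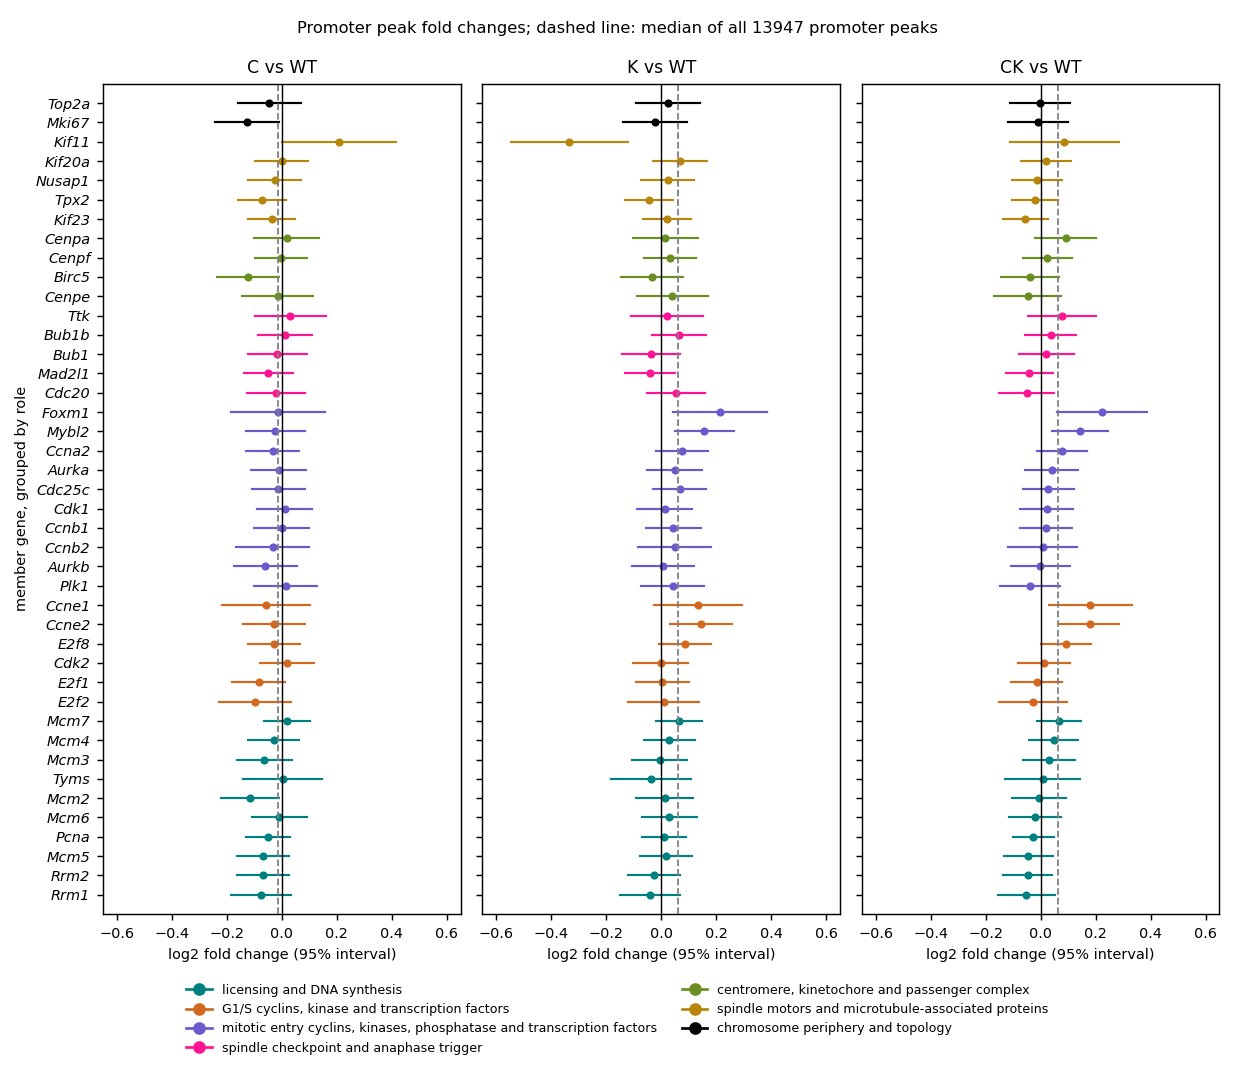
Log2 fold change of the 42 promoter peaks against WT in C, K and CK (3 panels, horizontal axis), grouped by role, with bars for the 95% confidence interval and a dashed line at the median of all promoters. The points stay near 0, Kif11 in K at -0.33 lies farthest from it, and no promoter was called at an adjusted p of 0.01.

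**Figure D3:**
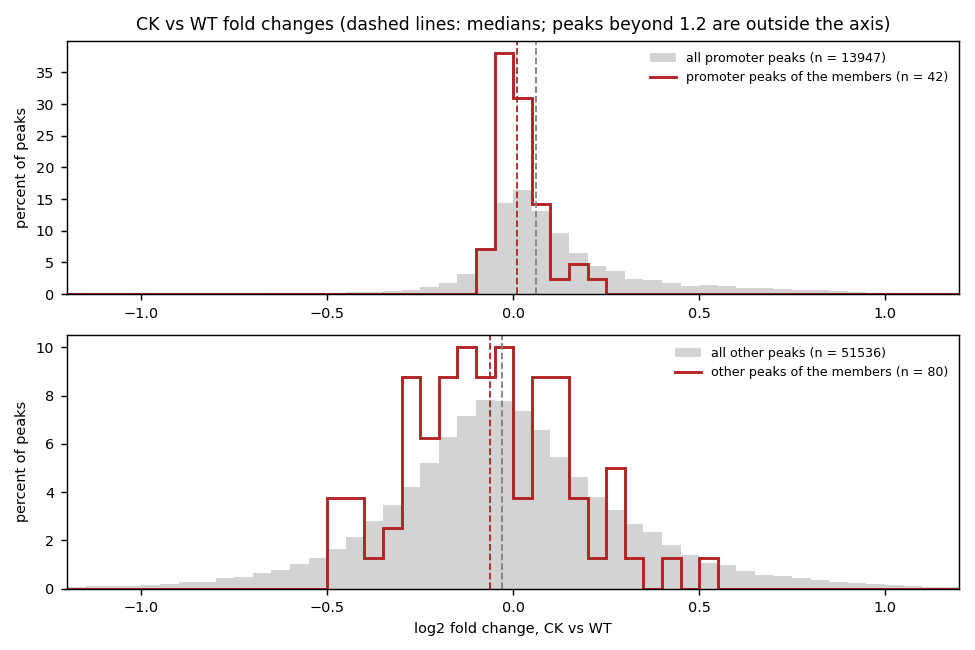
Distribution of the CK against WT log2 fold change (horizontal axis) as the percent of peaks in each bin, for promoter peaks above and other peaks below, with all peaks filled in grey, the members as a red outline and medians as dashed lines. The distribution of all 13947 promoters extends on both sides beyond the range of -0.06 to 0.22 that the 42 members occupied. The median of the members, 0.01, lies left of the 0.06 of all promoters.

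Summed over the 42 promoters, a mouse had 2476 ± 59.5 CPM if WT (SD, n = 4), 2430.0 ± 38.1 if C (n = 4), 2521 ± 91.4 if K (n = 4) and 2519.9 ± 46.0 if CK (n = 5). The ranges of all 4 genotypes overlapped, from 2390.0 to 2527 CPM in WT and from 2448 to 2571 CPM in CK. On the log2 scale the mean of the 42 stood 1.37 to 1.44 above the mean of all promoters in the WT mice, 1.34 to 1.36 in those of C, 1.32 to 1.34 in those of K and 1.28 to 1.32 in those of CK. This gap was smaller in every mutant mouse than in every WT mouse, while the mean of the members themselves overlapped between WT (5.74 to 5.81 log2 CPM) and CK (5.77 to 5.84). The mean of all promoters was 4.36 to 4.43 log2 CPM in WT and 4.49 to 4.55 in CK.

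No replication gene passed the test. Mcm2 to Mcm7 form the helicase that is loaded on origins, Pcna clamps the polymerase to DNA, and Rrm1, Rrm2 and Tyms make deoxynucleotides. These 10 promoters had median log2 fold changes of -0.06 (C), 0.01 (K) and -0.01 (CK), with a range in CK of -0.05 to 0.07. Pcna (chr2:132252386-132253813) was at 111, 111, 104 and 106 CPM in the WT mice and 109, 106, 103, 108 and 104 CPM in the CK mice. These ranges overlapped, and the log2 fold change in CK was -0.03 (95% interval -0.10 to 0.05, adjusted p = 0.695 by edgeR).

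Mcm2 (chr6:88898286-88899019) was at 37.5, 35.9, 35.9 and 38.3 CPM in WT mice, 33.8, 36.2, 33.3 and 32.7 in C mice, 37.9, 36.6, 35.4 and 38.6 in K mice and 37.3, 35.1, 35.9, 37.2 and 38.1 in CK mice. Of the promoters of the helicase genes it was lowest in C, with a log2 fold change of -0.12 ± 0.05 (SE, adjusted p = 0.501 by edgeR), and the ranges of C and WT overlapped. Mcm7 (chr5:138170911-138172543), which shares its promoter with Ap4m1, had log2 fold changes of 0.02 (C), 0.06 (K) and 0.07 (CK). Mcm3 was at 38.7 to 40.9 CPM in WT and 36.3 to 38.5 in C, so every C mouse was below every WT mouse, but its change of -0.06 did not pass (adjusted p = 0.758 by edgeR). Rrm1 (chr7:102441253-102442584), the large subunit of ribonucleotide reductase, was among the 3 lowest members in CK, at 35.3 ± 1.58 CPM (SD, n = 5) against 36.6 ± 0.978 in WT (n = 4), with a log2 fold change of -0.05 (adjusted p = 0.542 by edgeR).

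Among the G1/S genes, both E-type cyclins lay near the top of the range in CK, while E2f1, E2f2 and Cdk2 did not, although both cyclins turned to the lower side (-0.10 for Ccne1 and -0.12 for Ccne2) with offsets for GC content. Cyclin E1 and cyclin E2 activate CDK2 to start replication. The median log2 fold changes of these 6 promoters were -0.04 (C), 0.05 (K) and 0.05 (CK). Ccne2 (chr4:11190149-11192484) was at 77.5, 82.4, 73.2 and 73.9 CPM in WT mice, 80.5, 72.4, 76.1 and 71.6 in C mice, 91.4, 84.8, 83.3 and 79.5 in K mice and 93.7, 79.1, 84.9, 90.1 and 86.1 in CK mice. The CK values were mostly above those of WT, with CK mouse 2 inside the WT range. Its log2 fold change in CK was 0.18 ± 0.05 (SE, 95% interval 0.07 to 0.29), the lowest adjusted p of the 42 promoters at 0.0209 by edgeR, past 0.05 and not 0.01, and in K it was 0.14 (adjusted p = 0.127). It passed 0.01 without CK mouse 2 (0.21) and, at 0.18 to 0.19, with total-fragment scaling, abundance offsets, the Y signal as a covariate or the number of the mouse as a block.

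Ccne1 (chr7:38106627-38108574) was at 59.8, 56.9, 46.3 and 46.3 CPM in WT mice, 50.5, 50.3, 53.1 and 47.1 in C mice, 63.2, 60.5, 52.0 and 54.0 in K mice and 65.8, 54.0, 56.2, 59.5 and 60.9 in CK mice. WT mice 1 and 2 were above WT mice 3 and 4, K mice 1 and 2 were likewise above K mice 3 and 4, and every group overlapped WT. The log2 fold change in CK was 0.18 ± 0.07 (SE, adjusted p = 0.0989 by edgeR). An intronic peak of Ccne1 (chr7:38104017-38104656) went the other way, at 8.35 to 10.2 CPM in WT, 6.74 to 8.21 in K and 7.37 to 8.29 in CK. Its log2 fold change was -0.26 in K (adjusted p = 0.169) and -0.22 in CK (adjusted p = 0.151, edgeR). Every K and CK mouse was below every WT mouse there, as in 6.96% (K) and 7.44% (CK) of all other peaks. E2f1 (chr2:154568866-154570521), an activating E2F, had 89.5 ± 3.98 CPM in WT (SD, n = 4) and 88.6 ± 5.01 in CK (n = 5), a log2 fold change of -0.01 (95% interval -0.11 to 0.08), which was -0.24 and called with offsets for GC content. E2f8, a repressive E2F that closes the S phase programme, was at 89.8 to 93.6 CPM in WT and 93.8 to 104 in K, the only member whose K values all lay above WT (11.7% of all promoters did), with a log2 fold change of 0.09 (adjusted p = 0.288 by edgeR). In CK E2f8 was at 92.4 to 104 CPM with a log2 fold change of 0.09 (95% interval 0.00 to 0.18, adjusted p = 0.166 by edgeR).

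The mitotic entry genes code for cyclins A and B, their kinase CDK1 with its activating phosphatase CDC25C, the Polo and Aurora kinases, and the transcription factors FOXM1 and MYBL2. Their median log2 fold changes were -0.01 (C), 0.05 (K) and 0.02 (CK), with all 10 above 0 in K and 8 of 10 in CK. Foxm1 and Mybl2 were the upper end of this group. Foxm1 (chr6:128361850-128363898, shared with the start of Rhno1) was at 36.9, 32.2, 31.9 and 34.8 CPM in WT mice, 36.2, 34.0, 33.7 and 30.3 in C mice, 46.6, 39.5, 34.2 and 37.1 in K mice and 41.7, 33.8, 38.1, 40.7 and 43.7 in CK mice. In K 3 of 4 mice and in CK 4 of 5 mice were above every WT mouse, and the change was 0.21 ± 0.08 (SE, adjusted p = 0.133) in K and 0.22 ± 0.08 (adjusted p = 0.0560) in CK by edgeR. Without K mouse 1 the change in K was 0.12 (adjusted p = 0.489 by edgeR).

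Mybl2 (chr2:163054209-163055960) was at 63.7, 70.1, 60.2 and 66.0 CPM in WT mice, 60.6, 65.1, 64.1 and 65.7 in C mice, 74.5, 77.9, 68.7 and 68.9 in K mice and 72.6, 67.9, 71.8, 70.7 and 76.1 in CK mice. In K 2 of 4 mice and in CK 4 of 5 mice were above every WT mouse, and C lay inside the WT range. Its log2 fold change was 0.16 in K (adjusted p = 0.0752) and 0.14 in CK (adjusted p = 0.0489, edgeR), past 0.05 in CK and not 0.01. For the kinase and cyclin that they control the estimates lay near 0. Cdk1 (chr10:69351284-69353393) was at 40.3, 43.2, 38.6 and 41.7 CPM in WT and 42.0, 42.9, 41.1, 42.3 and 39.3 in CK, with a log2 fold change of 0.02 (95% interval -0.07 to 0.12). Ccnb1 (chr13:100785531-100787194), which encodes cyclin B1, was at 54.0, 54.2, 51.1 and 52.2 CPM in WT and 55.1, 56.1, 50.5, 54.3 and 52.1 in CK, with a log2 fold change of 0.02 (95% interval -0.07 to 0.12).

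**Figure D4:**
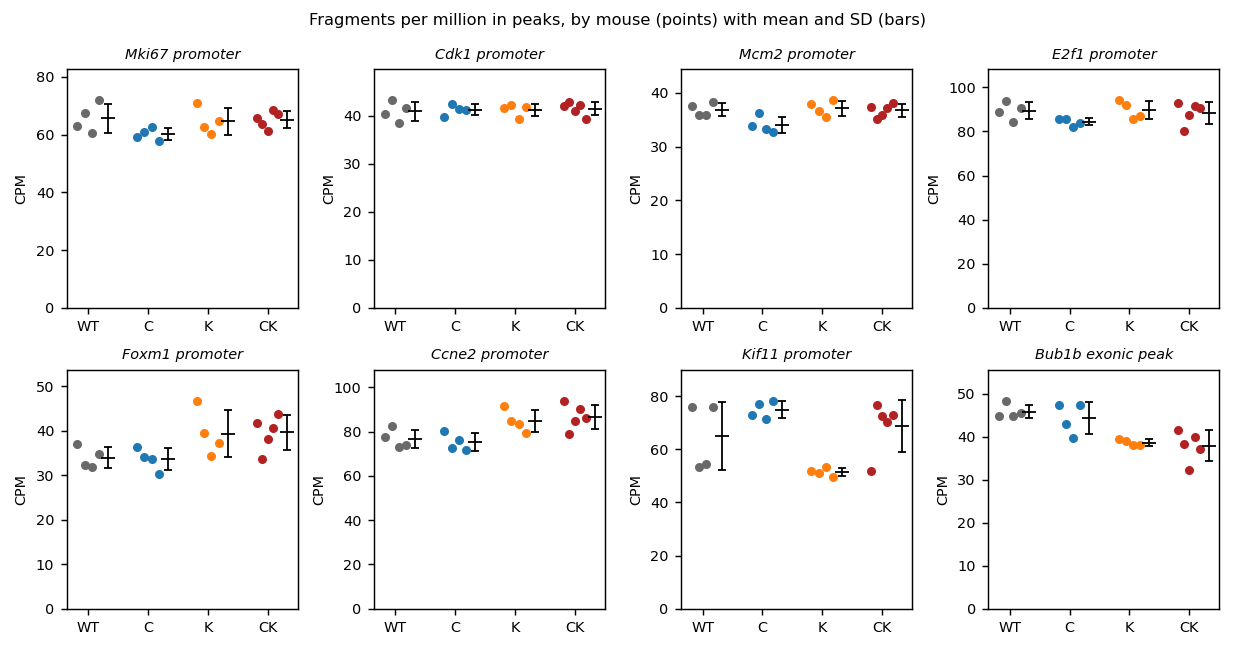
CPM (vertical axis, from 0) of 8 member peaks in each of the 17 mice (points) with the mean and SD of each genotype (bars), 1 panel for each peak. The Kif11 panel falls into a lower and an upper set of mice that cuts across the genotypes, and the Bub1b exonic peak is lower in all K and CK mice than in all WT mice.

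The spindle checkpoint genes (Bub1, Bub1b, Mad2l1, Ttk and the anaphase trigger Cdc20) had median log2 fold changes of -0.02 (C), 0.02 (K) and 0.02 (CK) at their promoters. Mad2l1 (chr6:66534846-66536065) was at 80.9 ± 3.22 CPM in WT (SD, n = 4) and 78.6 ± 2.37 in K (n = 4), a log2 fold change of -0.04 (adjusted p = 0.640 by edgeR). Cdc20 (chr4:118436482-118438122) had a log2 fold change of -0.05 in CK (adjusted p = 0.541 by edgeR) and the kinase Ttk (chr9:83833902-83835312) of 0.03 in C (adjusted p = 0.931). In the centromere and passenger group (Cenpa, Cenpe, Cenpf and Birc5) the medians were -0.01, 0.02 and -0.01. Birc5 (chr11:117848299-117849770), which encodes survivin of the chromosomal passenger complex, was at 49.0, 47.2, 43.2 and 43.0 CPM in WT and 42.4, 42.3, 41.9 and 40.7 in C. Each C mouse was below each WT mouse, with a log2 fold change of -0.12 ± 0.05 (SE) and an adjusted p of 0.501 by edgeR.

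Among the spindle motors and microtubule proteins, Kif11 stood apart by its spread between mice, within WT and CK as well as between genotypes. Kif11 encodes the motor that pushes spindle poles apart. Its promoter (chr19:37375011-37377222) was at 75.9, 53.4, 54.3 and 75.9 CPM in WT mice, 73.0, 77.0, 71.4 and 78.0 in C mice, 52.0, 50.9, 53.3 and 49.5 in K mice and 51.7, 76.6, 72.6, 70.3 and 72.9 in CK mice. The 17 mice fell into a set of 7 at 49.5 to 54.3 CPM (2 WT, 4 K and 1 CK) and a set of 10 at 70.3 to 78.0 CPM (2 WT, 4 C and 4 CK), with nothing between, and the log2 range of 0.66 was the widest of the 42. All K mice were in the lower set and all C mice in the upper one. The log2 fold change was -0.33 ± 0.10 in K (SE, adjusted p = 0.0567) and 0.21 ± 0.10 in C (adjusted p = 0.560, edgeR), and the groups were not called apart.

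The promoter of Hhex next to it did not show this split, at 28.7 to 36.3 CPM in all 17 mice. Within 5 Mb on each side 3 of 429 peaks were called in K (0.699%, against 1.48% of all peaks). That count compares K with WT and cannot show a split that also runs within WT. The 5 promoters of this group had median log2 fold changes of -0.03 (C), 0.02 (K) and -0.01 (CK). Tpx2 (chr2:152847519-152848815), which nucleates spindle microtubules, was at 42.7 to 43.6 CPM in WT, 40.3 to 42.3 in C and 41.9 to 42.2 in K, so that C and K lay below WT in every mouse by a small step (log2 fold change -0.07 in C and -0.04 in K, adjusted p = 0.661 and 0.619 by edgeR). Kif23 (chr9:61945959-61948291), a motor of the central spindle, was the lowest member in CK at -0.06 (adjusted p = 0.391 by edgeR). In all, the promoters with no overlap with WT were Birc5, Tpx2 and Mcm3 below WT in C (3.23% of all promoters), Kif11 and Tpx2 below WT in K (1.84%) and E2f8 above it, and 0 in CK (14.6% of all promoters lay above and 2.5% below).

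The 2 classical proliferation markers were not called in any mutant, and in CK their estimates lay at 0 within narrow intervals. Mki67 encodes Ki-67, which coats mitotic chromosomes, and Top2a encodes the topoisomerase that untangles them. Mki67 (chr7:135715451-135717579) was at 62.8, 67.5, 60.6 and 71.8 CPM in WT mice, 59.3, 60.9, 62.6 and 57.6 in C mice, 71.1, 62.5, 60.1 and 64.8 in K mice and 65.8, 63.7, 61.1, 68.4 and 67.0 in CK mice. C was the lowest group but overlapped WT (log2 fold change -0.13 ± 0.06, SE, adjusted p = 0.505 by edgeR), and in CK the change was -0.01 (95% interval -0.12 to 0.10). Top2a (chr11:99023345-99024875) was at 42.8, 43.9, 43.4 and 43.1 CPM in WT and 46.9, 44.2, 41.0, 43.1 and 40.9 in CK. Its log2 fold change in CK was 0.00 (95% interval -0.11 to 0.11).

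The members not described so far lay in the same narrow range. Among the replication genes the log2 fold changes were 0.03 in K and 0.05 in CK for Mcm4, 0.02 and -0.04 for Mcm5, 0.03 and -0.02 for Mcm6, -0.03 and -0.05 for Rrm2, the small subunit of ribonucleotide reductase, and -0.04 and 0.01 for Tyms. The G1/S genes Cdk2 and E2f2 were at 0.00 and 0.01 in K and at 0.01 and -0.03 in CK. Of the mitotic cyclins, Ccna2 was at 0.08 in K and 0.08 in CK and Ccnb2 at 0.05 and 0.01.

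Cdc25c had log2 fold changes of 0.07 in K and 0.03 in CK, Plk1 of 0.04 and -0.04, and the Aurora kinases Aurka of 0.05 and 0.04 and Aurkb of 0.01 and 0.00. The checkpoint kinase Bub1 was at -0.04 and 0.02. At the kinetochore, Cenpe was at 0.04 and -0.05 and Cenpf at 0.03 and 0.02, and of the spindle proteins Kif20a, a motor of cytokinesis, was at 0.07 and 0.02 and Nusap1 at 0.02 and -0.01. The lowest adjusted p among these promoters in K and CK was 0.264 (edgeR), for Ccna2 in CK.

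CK was also set against the other mutants and against the sum of their effects, which asks whether the combined loss exceeds the 2 separate ones. None of the 122 member peaks was called in CK against C, CK against K or CK against the sum of C and K, where 1.68%, 0.00916% and 0.0107% of all peaks were called. Unadjusted p-values under 0.05 were found for 15, 3 and 1 of them, against 21.2%, 7.35% and 3.73% of all peaks. In CK against C 35 of the 42 promoters were above 0 (median log2 fold change 0.04, against 0.07 over all promoters), and Ccne2 (0.21, adjusted p = 0.0176) and Mybl2 (0.17, adjusted p = 0.0397, edgeR) passed 0.05, with Ccne1 at 0.24 (adjusted p = 0.0498) at that threshold (12.9% of all promoters passed it). DESeq2 called 1 of the 42 there, Ccne2, and 6.41% of all promoters. For CK against K the median was -0.01 and against the sum 0.02.

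The 80 peaks outside the promoters were weak by comparison. They comprised 23 in the downstream flank, 23 in introns, 21 over exons, 9 at the start of a neighbouring gene and 4 in the upstream flank. The 80 include those 9, whereas the class of all other peaks set against them held no promoter of a protein-coding gene. The WT median of the 80 was 2.10 CPM, against 3.12 for all other peaks, and 22 of 80 were under 1 CPM (27.5%, against 17.4%). Mki67 had 7 and Top2a 10, whereas Ccne2, Cdk1, Cdc25c, Mad2l1, Mcm3 and Tyms had none. Their median log2 fold changes were -0.02 (C), 0.00 (K) and -0.06 (CK), against 0.01, -0.03 and -0.03 over all other peaks. At an adjusted p under 0.01 there were 0 calls for C and K and 1, a loss, for CK, where 0.171%, 1.33% and 5.84% of all other peaks were called (3.9% lost in CK).

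The called peak lay near the end of Bub1b, which encodes the checkpoint kinase BUBR1. It spans chr2:118638004-118639239, 39793 bp from the TSS, and covers coding exon 21 of 23 (118638401 to 118638575 on the plus strand). The printed 300 bases of the peak (chr2:118638472-118638771, plus strand, GRCm38.p6) begin inside that exon, and the 104 exon bases are in capitals.
Bub1b exon 21 and intron: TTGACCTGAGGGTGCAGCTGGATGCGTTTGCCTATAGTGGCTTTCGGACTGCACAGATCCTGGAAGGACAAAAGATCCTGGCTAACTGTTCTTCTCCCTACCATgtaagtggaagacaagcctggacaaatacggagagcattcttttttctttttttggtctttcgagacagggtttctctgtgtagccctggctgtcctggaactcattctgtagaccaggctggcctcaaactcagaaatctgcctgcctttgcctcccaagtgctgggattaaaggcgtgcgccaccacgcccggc

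This peak was at 44.9, 48.2, 44.8 and 45.6 CPM in WT mice, 47.2, 43.0, 39.6 and 47.3 in C mice, 39.5, 39.0, 38.0 and 38.0 in K mice and 41.6, 38.4, 32.1, 40.0 and 37.2 in CK mice. Every K and every CK mouse was below every WT mouse, and C overlapped both (6.96% of all other peaks were so separated in K and 7.44% in CK). The log2 fold change was -0.28 ± 0.06 in CK (SE, 95% interval -0.40 to -0.15, adjusted p = 0.00365 by edgeR and 0.00105 by DESeq2), -0.25 in K (adjusted p = 0.0269 by edgeR) and -0.05 in C (adjusted p = 0.878). Against C the change in CK was -0.23 (adjusted p = 0.0288 by edgeR) and against K -0.03. The call in CK was lost without WT mouse 2, WT mouse 4 or CK mouse 3 (adjusted p of 0.0162, 0.0117 and 0.0104 by edgeR). It was -0.20 among the libraries with Y signal (adjusted p = 0.139) and -0.33 among those without (adjusted p = 0.0372). The Bub1b promoter itself (chr2:118597623-118599185) had a log2 fold change of 0.04 in CK (adjusted p = 0.649 by edgeR).

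A further 2 other peaks passed 0.05 in CK but not 0.01 (3 of 80 passed 0.05, against 13.8% of all other peaks), and were chosen for mention after their values were seen. A strong peak upstream of Aurkb, the kinase of the passenger complex (chr11:69039942-69041848), was at 92.1, 101, 104 and 109.9 CPM in WT and 87.0, 90.7, 81.3, 91.3 and 97.0 in CK. The groups overlapped, and its log2 fold change was -0.19 (adjusted p = 0.0207 by edgeR). A weak peak downstream of Plk1 (chr7:122170154-122172257) was at 1.77 to 2.45 CPM in WT and 2.42 to 3.88 in CK, with a log2 fold change of 0.51 (adjusted p = 0.0405 by edgeR). An intronic peak of Ttk (chr9:83860848-83861326), also singled out after the values were seen, was at 1.27, 1.71 and 1.33 CPM in C mouse 1, C mouse 2 and CK mouse 5 and at 0 to 0.227 CPM in the other 14 mice, so that it was open in a few mice of 2 genotypes.

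The fold changes of the members varied with base composition. In K and CK, promoters rich in G and C were higher throughout the data: the median log2 fold change in CK was -0.02 for all promoters under 50% GC (1.87% gained) and 0.29 for those of at least 65% GC (28.1% gained). Across the 42 members Pearson's r between GC content and log2 fold change was 0.44 for both CK and K and -0.26 for C (Spearman's rho 0.25, 0.40 and -0.20), and across all promoters 0.41 for both CK and K and 0.08 for C. These are descriptions across genes of the same libraries. Of the members, 23 lay under 55% GC and only Ccne1 (67.8%), Ccne2 (68.2%) and E2f1 (65.1%) at 65% or more, where their median in CK was 0.18 against 0.29 for all promoters there.

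With offsets that removed the relation between GC content and count in each library, the median in CK was -0.04 for the members (14 of 42 above 0) and -0.01 for all promoters, of which 576 were gained and 947 lost. Under these offsets E2f1 was called lower in CK (-0.24, adjusted p = 9.49e-05) and in K (-0.18, adjusted p = 0.00826), and Birc5 in CK (-0.17, adjusted p = 0.00985, edgeR). The promoters that stood highest in CK without the offsets, Foxm1 (58.5% GC), Ccne1, Ccne2 and Mybl2 (60.9% GC), were then at 0.12, -0.10, -0.12 and 0.00. The part of base composition in these values was not tested.

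**Figure D5:**
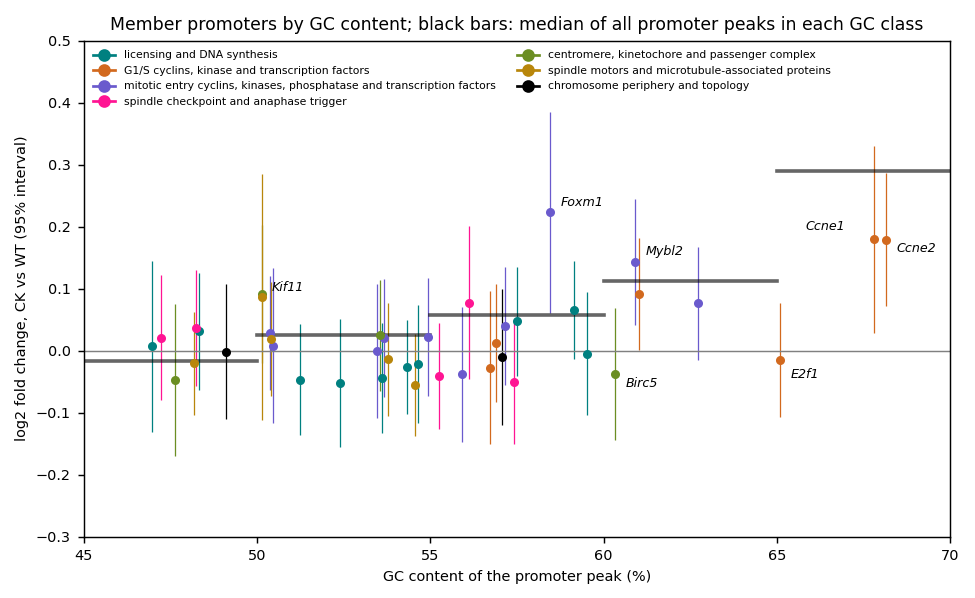
GC content of the promoter peak (percent, horizontal axis) against the CK against WT log2 fold change (vertical axis), with the 42 members as points with 95% intervals, coloured by role, and black bars for the median of all promoters in each GC class. The bars climb from -0.02 below 50% GC to 0.29 at 65% or more, where Ccne1 and Ccne2 lie below the bar at 0.18 and E2f1 farther below at -0.01.

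Members with and without these elements in the windows searched above were set side by side, with E2f1 counted as without. The median log2 fold change in CK was 0.01 for the 27 promoters with a CCAAT box and -0.01 for the 7 without, 0.02 for the 17 with a CHR and -0.02 for the 17 without, and 0.01 for the 7 with an E2F site and 0.00 for the 27 without. These are differences of medians with no test, and their uncertainty was not estimated.

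A wider list of 122 cell cycle genes outside the 42 gave the surroundings. It held 121 genes with 128 promoter peaks, of which 4 were gained and 1 was lost in CK (3.91%, against 10.5% of all promoters), 1 was gained and 1 lost in K (against 2.01% of all promoters), and 1 was lost in C (against 0.122%). The G1 cyclins, inhibitors and pocket proteins gave the 4 gains, 4 of 33 peaks (12.1%, against 9.47% of all promoters). They were at Rb1, the retinoblastoma protein that holds E2F in check (log2 fold change 0.28, adjusted p = 0.00923), at Cdkn2a, which encodes the inhibitors p16INK4a and p19ARF (0.33, adjusted p = 0.00287), and at 2 starts of Tfdp2, an E2F dimerization partner (0.37, adjusted p = 2.57e-04 and 0.74, adjusted p = 0.00611) by edgeR. None of the 33 peaks of replication licensing, forks and chromatin assembly and none of the 31 peaks of spindle and cytokinesis genes was called in C, K or CK (edgeR), and 3 and 3 of them had an unadjusted p under 0.05 in CK.

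The lost peak was at the start of Hjurp, the chaperone that loads the centromeric histone CENP-A. It was lower in all 3 mutant genotypes by a like amount, 166 to 173 CPM in WT, 117 to 125 in C, 119 to 125 in K and 114 to 132 in CK, with log2 fold changes of -0.48, -0.48 and -0.49. No mutant mouse reached a WT mouse. The promoter of Cenpa, whose product Hjurp carries, was at 66.4 to 76.5 CPM in WT and 65.0 to 81.8 in CK, with a log2 fold change of 0.09 (adjusted p = 0.278 by edgeR). E2f5, a repressive E2F, was gained in CK against C (0.29, adjusted p = 0.00231 by edgeR).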

How the data were processed

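ATAC-seq was performed on splenic GCB cells of 17 mice. Per the file header, the deposited values are raw fragment counts for each consensus peak and library, made by the authors with featureCounts 2.0.1, which counts a fragment in every peak that at least 20% of it overlaps. The authors aligned reads to mm10 and removed duplicates with the nf-core ATAC-seq pipeline. Fragments in peaks, 17483706 to 21857738 a library, set the precision, and intervals cover the spread between mice. Genotypes came from the labels. The 7 sorted centroblast and centrocyte samples of WT mice were not analysed here.

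Peaks with fewer than 10 counts in all were to be removed, and there were 0. The 65483 peaks were fitted with edgeR 4.0.16 in R 4.3.3 (TMM, quasi-likelihood F test, 1 coefficient for each genotype over all 17 libraries). P-values were adjusted by Benjamini-Hochberg over all peaks and called at 0.01. Levels are CPM from the TMM library sizes. Genes came from GENCODE M21, sequences and GC content from GRCm38.p6. Standard errors came from the F statistic and 95% intervals from its t distribution. The fit was tested on simulated data.

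The 42 genes, the roles, the other lists and the tests were chosen with earlier results of these data known, so lists are described by counts and medians without a test. Named were members with a called peak, the 3 highest and 3 lowest promoters in each of C, K and CK, and Mki67, Top2a, Ccnb1, Cdk1, Foxm1, E2f1, Mcm2 and Pcna whatever their values. E2f8, Mcm3, Cenpa, the intronic peak of Ccne1 and the weaker peaks of Aurkb, Plk1 and Ttk were named after their values were seen. Alternatives were DESeq2 1.42.0, other scalings, GC and abundance offsets, filters, thresholds, peak assignments, a Y signal covariate, a replicate block and leaving out each mouse. Fits restricted to libraries with or without Y signal were added after seeing the data. Mice with the same number were taken as paired where the deviations from the group means correlated above 0.1 for every pair, which held between WT and C (0.14 to 0.22 for 4 pairs) and not between WT and the other mutants. No label says what the numbers share. Same-numbered WT and C mice also shared the presence or absence of Y signal. WT and C pairs with different numbers but like Y signal correlated at 0.06 to 0.17. Pairing by number therefore cannot be told apart from Y signal here.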

Additional observations from a re-analysis of the deposited data

Results flagged for a closer look

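Each member promoter and the called Bub1b peak were examined in each genotype, 172 sets of mice in all, and 8 held a mouse far from the rest. Chance alone would give about 1 in 20, or 8.6 sets, so the flags were no more than chance would give. Kif11 in CK replicate 1 was at 51.7 CPM with the other CK mice at 70.3 to 76.6. Plk1 in K replicate 3 was at 37.6 CPM (others 41.6 to 41.9), E2f2 in WT replicate 4 at 49.6 CPM (43.6 to 44.1) and Rrm1 in CK replicate 2 at 32.5 CPM (35.6 to 36.2). In C, replicate 4 was at 44.8 CPM for the Bub1b promoter (42.9 to 43.2), replicate 2 at 66.7 for Kif20a (62.6 to 63.2) and 36.3 for Mcm3 (38.2 to 38.5), and replicate 3 at 72.7 for Nusap1 (74.5 to 74.8).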

How the results depend on the processing

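The 42 promoters gave calls in C under no alternative. In K they gave 1 with GC offsets (1.61% of all promoters were called). In CK they gave 1 with total fragments (12.2% of all promoters), abundance offsets (12.1%), the replicate block (14.5%) or the Y covariate (12.9%), 2 with GC offsets (10.9%), 2 at an adjusted p of 0.05 (21.2%) and 0 to 1 when a mouse was left out (1 without CK replicate 2, 5.37 to 10.8%). The other peaks gave 1 call in C among libraries with Y signal (0.0369% of all other peaks), and in K 1 with the block (2.87%) and 1 at 0.05 (4.76%). In CK they gave 3 with GC offsets (5.18%), 2 with the block (8.90%), 3 at 0.05 (13.8%), 0 with a fold above 1.5 (2.81%), 0 among libraries with (0.687%) and 0 among those without Y signal (1.30%), and 0 to 2 when a mouse was left out (0 without WT replicate 2, WT replicate 4 or CK replicate 3, 2 without WT replicate 1 or CK replicate 5, 2.65 to 6.27%). For CK against C the members gave 1 call with abundance offsets (1.78% of all peaks), DESeq2 (3.12%), the Y covariate (2.93%) or libraries with Y signal (0.293%), 2 with the block (3.93%), 4 at 0.05 (6.68%) and 0 to 1 when a mouse was left out (0.382 to 1.84%). The other cell cycle genes gave 9 calls in CK with total fragments, 13 with GC offsets, 8 with the block, 9 at 0.05, 1 with a fold above 1.5 (4.28% of all promoters), 2 among libraries with (0.968%) and 2 among those without Y signal (2.75%), and 2 to 6 when a mouse was left out. The median of the 42 promoters was -0.042 in CK with GC offsets and 0.081 in K among libraries without Y signal, where K had 1 library that is assumed to vary like the others. E2f1 in K turned to -0.18 with GC offsets (adjusted p = 0.00826 by edgeR). The cause was not tested. A further 78 of 1092 uncalled single values changed sign. Of the same-numbered pairs of libraries 12 of 24 correlated above 0.1 in their deviations from the group means (mean 0.068), and 16 of 84 pairs with different numbers did (mean -0.019). Between WT and K and between WT and CK 1 of 4 same-numbered pairs did, so these groups were not taken as paired, and the block moved calls over all peaks from 966 to 2146 in K and from 4478 to 6607 in CK. Depth limits the other peaks, of which 22 of 80 were under 1 CPM.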
